A study of Mus musculus with 12 samples.

Results

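Endothelial cells line blood and lymph vessels, and 10 genes known as markers of these cells are described here across 4 groups of mouse bone marrow cultures: the receptor genes Tie1, Tek, Kdr and Flt1, the junction and surface genes Cdh5, Pecam1, Esam, Cldn5 and Emcn, and Egfl7, whose product is secreted. They are 10 of the 54532 genes in a table of FPKM, which counts fragments per exonic length and per sequencing depth. The genes were chosen by their values, because several of them were higher in the knockout columns of both media, and they were found by matching Ensembl identifiers to mouse symbols. That choice used the comparison of knockout with control libraries. The values of the 10 genes in that comparison are therefore a description and were not tested. Tests are given for the comparison of media on these genes and for the genotype comparisons on other endothelial genes.

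The libraries come from bone marrow mesenchymal stem cells (MSCs) of C57BL/6 mice at 4 weeks of age, grown to passage 3 and induced for 5 days. The paper gives C57BL6/J as the background of the floxed line. The control cells, labelled WT, came from Chd7 fl/fl littermates, which carry the floxed gene without Cre. The cells labelled KO came from Prx1-cre;Chd7 fl/fl mice, in which Cre is active in early limb mesenchyme and removes a floxed exon of Chd7, a gene for a chromatin remodeler. Prx1-cre is not known for activity in the endothelial lineage. Osteogenic medium held β-glycerophosphate at 10 mM, dexamethasone at 10 nM and ascorbic acid at 50 µM. Adipogenic medium held isobutylmethylxanthin at 0.5 µM, dexamethasone at 1 µM and insulin at 10 µg/ml. Each combination of genotype and medium had 3 libraries, 12 in all, and the labels do not say whether these were separate mice. The marrow was flushed from limb bones and plated without a described sort. The paper identified the cultured MSCs by flow cytometry for CD29 and CD90.2. Its methods also list antibodies to CD31, the protein of Pecam1, and to CD45. Without a described sort, cells of other lineages could have been present.

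FPKM rises in steps of 1 fragment, and these steps gave a depth scale for each library. The deposited values had already been scaled by median ratios. Depth in the ratios below therefore means this scale and not the number of fragments sequenced. In each library, 98.3% to 98.6% of the values under 30 fragments were whole multiples of 1 fragment, within a tolerance of 0.05 fragments. Fragments on genes numbered 17496323 to 18887200 in control and 18648006 to 18801827 in knockout libraries with osteogenic medium. They numbered 18641477 to 21099586 in control and 18747766 to 18982170 in knockout libraries in adipogenic medium. A count of 3 fragments on 1 kilobase of exon was then worth 0.143 to 0.185 FPKM. Of the 10 genes, 4 (Pecam1, Cdh5, Emcn and Kdr) reached 1 FPKM in at least 3 libraries, the filter for testing with limma on log2(FPKM + 1). Emcn passed this filter through knockout libraries alone, and Pecam1 through the knockout osteogenic libraries and control adipogenic libraries 1 and 3. Cdh5 passed through all knockout libraries and control adipogenic libraries 1 and 3. Only Kdr met the filter in each genotype taken alone. By a mean of at least 10 fragments, the filter of an added limma voom fit on recovered fragments, 9 of 10 passed and Cldn5 did not. Tek, with 2 to 8 fragments per control library, passed through knockout libraries.

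The vessel wall works through signals that endothelial cells receive and through the junctions between them. Vascular endothelial growth factors act on Kdr and Flt1, and angiopoietins act on Tek, with Tie1 as its partner receptor. Cadherin and claudin proteins, with Pecam1 and Esam, hold neighbouring cells together, and bone marrow is known for sinusoids and for capillaries that carry Emcn. Transcription factors of the ETS family, which bind sites with the core GGAA, and of the SOX family are known regulators of endothelial genes.

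Promoter windows of 250 bases before a transcription start, from RefSeq on GRCm38.p6, were matched for 7 of the 10 genes: Emcn, Tie1, Tek, Kdr, Flt1, Egfl7 and Cldn5. Pecam1, Cdh5 and Esam were not matched. The 7 genes gave 9 windows, 3 of them for Egfl7. The windows shown, a choice made for display, belong to 4 of the 5 genes whose knockout libraries lay above all control libraries in both media, and GGAA or its reverse complement TTCC is in capitals. They lie at chr3:137340828-137341077 on the plus strand for Emcn, chr4:118489850-118490099 on the minus strand for Tie1, chr4:94739039-94739288 on the plus strand for Tek and chr2:26580833-26581082 on the plus strand for Egfl7, the first of its 3 windows. Each is written 5′ to 3′ on the strand of its gene.
Emcn: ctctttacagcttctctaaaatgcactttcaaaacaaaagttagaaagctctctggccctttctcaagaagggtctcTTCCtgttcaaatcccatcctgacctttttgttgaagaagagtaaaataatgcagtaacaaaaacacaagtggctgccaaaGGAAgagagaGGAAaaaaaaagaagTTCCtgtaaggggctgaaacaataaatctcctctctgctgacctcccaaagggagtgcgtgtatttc
Tie1: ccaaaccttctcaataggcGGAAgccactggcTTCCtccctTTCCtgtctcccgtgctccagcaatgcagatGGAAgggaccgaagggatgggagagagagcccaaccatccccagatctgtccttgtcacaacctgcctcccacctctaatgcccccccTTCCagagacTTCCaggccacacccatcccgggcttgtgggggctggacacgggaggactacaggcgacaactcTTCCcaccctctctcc
Tek: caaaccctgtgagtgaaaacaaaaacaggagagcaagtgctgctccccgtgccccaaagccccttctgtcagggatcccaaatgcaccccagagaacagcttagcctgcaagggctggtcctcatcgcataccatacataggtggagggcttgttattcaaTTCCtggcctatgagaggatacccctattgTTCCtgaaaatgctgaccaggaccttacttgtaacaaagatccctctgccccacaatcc
Egfl7: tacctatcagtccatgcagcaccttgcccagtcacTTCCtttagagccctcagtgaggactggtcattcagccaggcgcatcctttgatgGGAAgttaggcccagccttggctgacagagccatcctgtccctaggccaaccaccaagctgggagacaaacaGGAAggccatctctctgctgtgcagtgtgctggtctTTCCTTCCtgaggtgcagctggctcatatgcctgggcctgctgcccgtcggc

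On both strands, GGAA had 4 matches in the window of Emcn, 7 in Tie1, 2 in Tek, 4 in Kdr, 4 in Flt1 and 5, 3 and 1 in the windows of Egfl7. Among all 32851 promoter windows of this length, 93.4% held GGAA, with a median of 3 matches. GGAAG, which contains GGAA, was held by 64.1% of all windows, ACAAT by 27.7% and ACAAAG by 16.5%. CCGGAAG, a longer ETS site that contains both GGAA and GGAAG, was held by 6.91% of all windows and by none of the 9. ACAAT, a SOX family site, had 1 match in Emcn and 2 in Tek. ACAAAG had 1 match in Tek and 1 in the third window of Egfl7. The window of Cldn5 held none of these letters. A match is a stretch of letters and not a measured binding site.

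Chd7 (ENSMUSG00000041235, chr4:8690406-8867659, plus strand) checks the genotype labels. It was at 2.64, 2.67 and 2.77 FPKM in control and 2.03, 2.35 and 2.28 in knockout libraries with osteogenic medium, and the groups did not overlap. In adipogenic medium it was at 2.26, 1.81 and 2.23 FPKM in control and 2.03, 2.35 and 2.48 in knockout libraries, and the groups overlapped. The ratio of knockout to control fragments per depth was 0.825 (0.772 to 0.881) in osteogenic medium and 1.10 (1.03 to 1.18) in adipogenic medium, or 1.02 (0.943 to 1.10) without control adipogenic library 2. Brackets after such a ratio hold the exact 95% binomial interval of the pooled fragments, which covers counting error only. The value of a gene sums all of its exons, so it checks the loss of a single exon only in part. Since Chd7 was not lower in adipogenic medium, that group is called by its label, and every direction given for the libraries labelled knockout is a direction between labels.

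The cell type label was checked against markers. Of mesenchymal markers, Col1a1 was at 587 to 1073 FPKM, Pdgfrb at 39.9 to 87.1 and Prrx1 at 14.1 to 22.6, while Thy1 was at 0.206 to 1.03 and Lepr at 0.449 to 1.13. The macrophage gene Lyz2 reached 14412 FPKM, Cd68 lay between 491 and 909, and Ptprc, the gene of CD45, between 7.63 and 23.0. Genes of macrophages were therefore abundant in all 12 libraries. In such cultures more cells of a type and more RNA per cell cannot be told apart.

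Control adipogenic library 2 stood apart from its group. Across genes on log2(FPKM + 1), its mean Pearson's r was 0.941 with the other control adipogenic libraries, 0.981 with the control osteogenic and 0.984 with the knockout osteogenic libraries, while control adipogenic libraries 1 and 3 had an r of 0.989 with each other. The endothelial protein C receptor gene Procr was at 6.23 FPKM in library 2 and at 76.0 and 77.0 in libraries 1 and 3. Adgre1, a macrophage gene, was at 227 FPKM against 1171 and 1136, and the granulocyte gene S100a8 at 2.48 against 65.8 and 86.0. Whether its label is correct was not tested, and it is kept in its labelled group. The counts by limma on FPKM for each gene list below, and the tests given below whose call turned on this library, are also given without it. Knockout adipogenic library 1 lay apart from its group to a lesser degree. Its mean r was 0.981 with knockout adipogenic libraries 2 and 3, which had an r of 0.992 with each other. Adgre1 was at 255 FPKM in it, against 130 and 127.

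**Figure D1:**
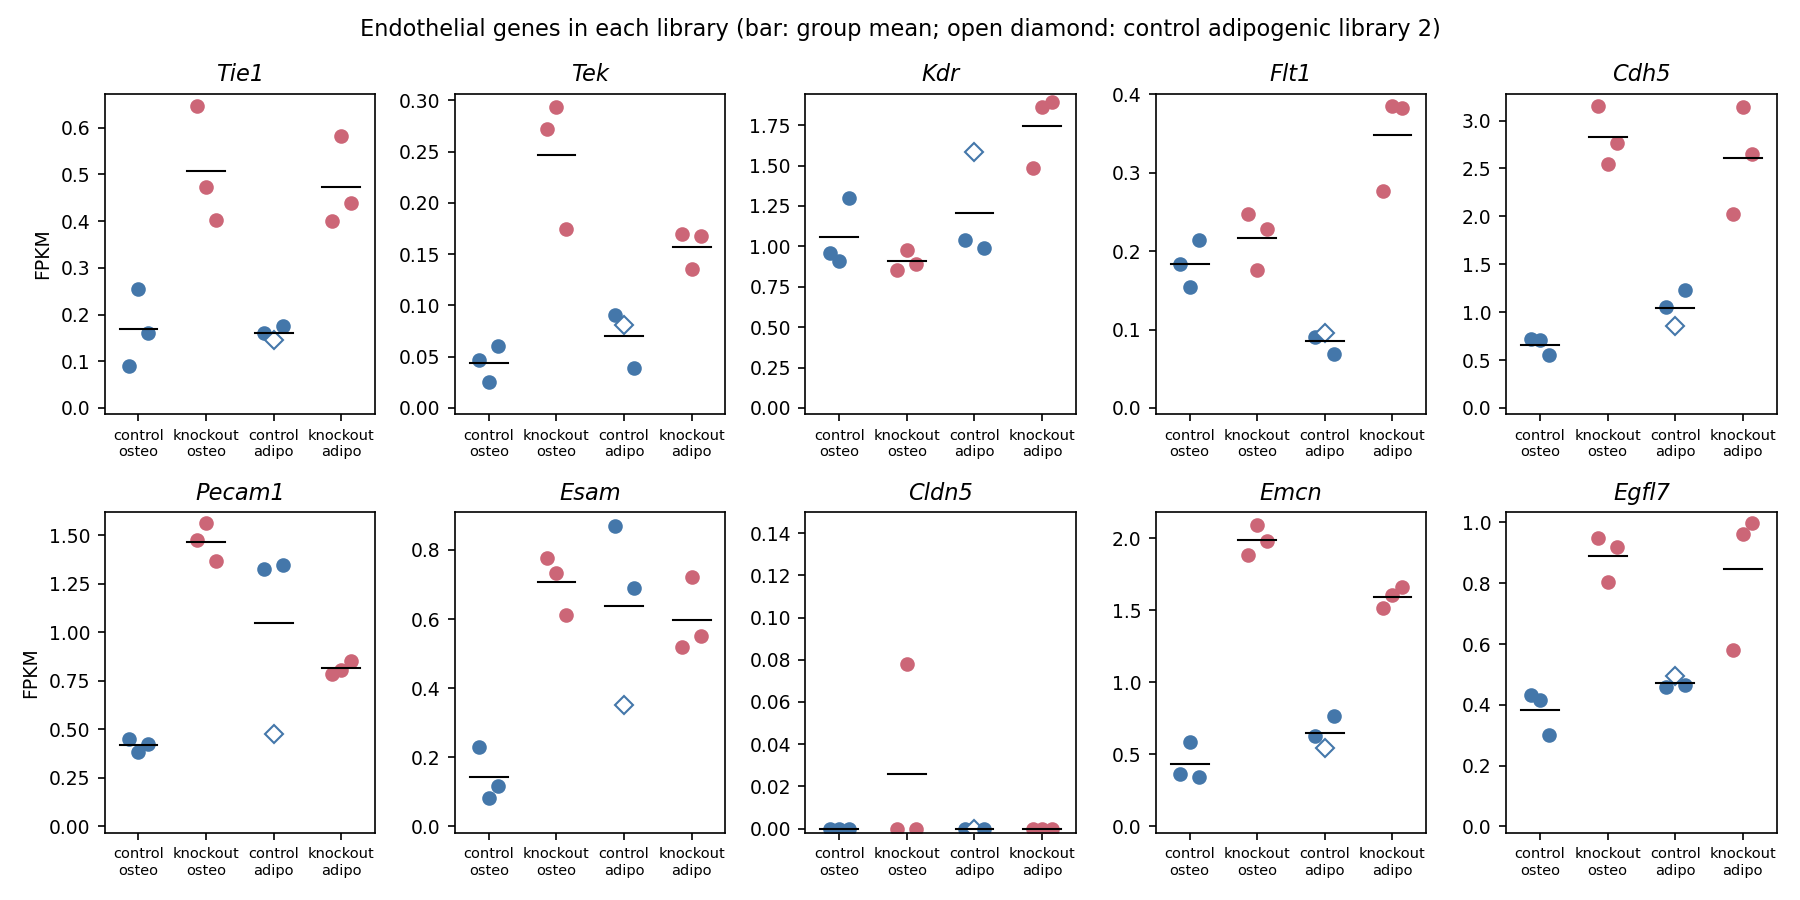
FPKM of each of the 10 genes (vertical axes, from 0) in the 4 groups of 3 libraries, with a point per library, a bar at the group mean and an open diamond for control adipogenic library 2. Cdh5 lay at 0.552 to 1.23 FPKM in control and 2.03 to 3.15 in knockout libraries, while Pecam1 in adipogenic medium lay lower in the knockout libraries than in control libraries 1 and 3.

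Tie1 (ENSMUSG00000033191, chr4:118471191-118490061, minus strand) encodes an orphan receptor tyrosine kinase that pairs with Tek. It was at 0.0897, 0.254 and 0.161 FPKM in control and 0.645, 0.472 and 0.402 in knockout libraries with osteogenic medium, and at 0.161, 0.146 and 0.176 in control and 0.401, 0.583 and 0.439 in knockout libraries in adipogenic medium. In each medium all libraries labelled knockout lay above all control libraries, the control groups of the media overlapped, and so did the knockout groups. Behind these values stood 8 to 21 fragments per control library and 36 to 57 per knockout library. The ratio of knockout to control was 3.04 (2.15 to 4.40) in osteogenic and 2.97 (2.09 to 4.31) in adipogenic medium, or 2.82 without control adipogenic library 2.

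Tek (ENSMUSG00000006386, chr4:94739289-94874976, plus strand), the angiopoietin receptor, was the lowest of the 4 receptor genes in the mean FPKM of control libraries in both media. Its values in osteogenic medium were 0.0468, 0.0252 and 0.0600 FPKM in control and 0.272, 0.293 and 0.175 in knockout libraries, and in adipogenic medium 0.0904, 0.0811 and 0.0393 in control and 0.170, 0.135 and 0.167 in knockout libraries. Again the knockout libraries lay above the control libraries in each medium, and the control groups overlapped between media, while the knockout osteogenic libraries lay above the knockout adipogenic ones. These are low values, with 4, 2 and 5 fragments in the control and 23, 25 and 15 in the knockout libraries with osteogenic medium. With adipogenic medium the fragments were 7, 8 and 3 in control and 15, 12 and 15 in knockout libraries. The ratio was 5.55 (2.90 to 11.7) in osteogenic and 2.21 (1.24 to 4.07) in adipogenic medium, or 2.42 without control adipogenic library 2, with wide intervals at this depth.

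Kdr (ENSMUSG00000062960, chr5:75932827-75978458, minus strand) encodes the main signalling receptor for vascular endothelial growth factor A. It was at 0.959, 0.909 and 1.30 FPKM in control and 0.851, 0.979 and 0.894 in knockout libraries with osteogenic medium, and at 1.04, 1.58 and 0.991 in control and 1.49, 1.86 and 1.89 in knockout libraries in adipogenic medium. The genotypes overlapped in both media, the control groups overlapped between media, and only the knockout groups lay apart between media, higher in adipogenic medium. Kdr had the most fragments of the 10 genes, 2439 over all libraries. The ratio of knockout to control was 0.860 (0.755 to 0.979) in osteogenic and 1.41 (1.27 to 1.57) in adipogenic medium. Without control adipogenic library 2 it was 1.72 (1.51 to 1.97) in adipogenic medium, and the knockout libraries then lay above the control libraries.

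Flt1 (ENSMUSG00000029648, chr5:147561604-147726011, minus strand) encodes a receptor that also acts as a decoy for vascular endothelial growth factor A. Its values were 0.184, 0.154 and 0.214 FPKM in control and 0.247, 0.176 and 0.228 in knockout libraries with osteogenic medium, and 0.0901, 0.0955 and 0.0686 in control and 0.276, 0.385 and 0.382 in knockout libraries in adipogenic medium. The control adipogenic libraries were lowest, the osteogenic groups overlapped above them, and the knockout adipogenic libraries were highest. The ratio was 1.18 (0.928 to 1.49) in osteogenic medium and 4.06 (3.07 to 5.44) in adipogenic medium, or 4.38 without control adipogenic library 2.

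Cdh5 (ENSMUSG00000031871, chr8:104101625-104144511, plus strand) encodes VE-cadherin, the cadherin of endothelial adherens junctions. It was at 0.722, 0.708 and 0.552 FPKM in control and 3.15, 2.55 and 2.77 in knockout libraries with osteogenic medium, and at 1.06, 0.853 and 1.23 in control and 2.03, 3.14 and 2.65 in knockout libraries in adipogenic medium. Its group means were 0.660 ± 0.0942, 2.82 ± 0.304, 1.05 ± 0.191 and 2.61 ± 0.559 FPKM in the same order (SD, n = 3 each). The control osteogenic libraries were lowest, the control adipogenic libraries came next with no overlap, and the knockout groups lay above both and overlapped each other. The ratio of knockout to control was 4.28 (3.57 to 5.15) in osteogenic and 2.53 (2.17 to 2.96) in adipogenic medium, or 2.28 without control adipogenic library 2.

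Emcn (ENSMUSG00000054690, chr3:137341067-137432185, plus strand) encodes endomucin, a sialomucin of venous and capillary endothelium. It was at 0.367, 0.583 and 0.345 FPKM in control and 1.88, 2.10 and 1.98 in knockout libraries with osteogenic medium, and at 0.630, 0.548 and 0.765 in control and 1.52, 1.61 and 1.66 in knockout libraries in adipogenic medium. The group means were 0.432 ± 0.131, 1.99 ± 0.106, 0.647 ± 0.109 and 1.60 ± 0.0744 FPKM (SD, n = 3 each). The control groups overlapped, the knockout adipogenic libraries lay above them, and the knockout osteogenic libraries above those. The ratio was 4.63 (3.81 to 5.68) in osteogenic and 2.50 (2.11 to 2.98) in adipogenic medium, or 2.29 without control adipogenic library 2.

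Pecam1 (ENSMUSG00000020717, chr11:106654217-106750628, minus strand) encodes CD31, an adhesion molecule of endothelial junctions that is also known on platelets and on monocytes and macrophages. In osteogenic medium it was at 0.452, 0.382 and 0.427 FPKM in control and 1.47, 1.56 and 1.37 in knockout libraries, a ratio of 3.49 (2.88 to 4.24) with no overlap. In adipogenic medium control libraries 1 and 3 were at 1.33 and 1.35 FPKM, control library 2 at 0.476, and the knockout libraries at 0.787, 0.809 and 0.853. Library 2 thus lay near the control osteogenic libraries, and libraries 1 and 3 lay just below the knockout osteogenic ones. With all 3 control libraries the groups overlapped and the ratio was 0.815 (0.694 to 0.958). Without library 2 the knockout libraries lay below the control libraries, with a ratio of 0.610 (0.515 to 0.723), so the ratio of Pecam1 was above 1 in osteogenic and below 1 in adipogenic medium.

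Esam (ENSMUSG00000001946, chr9:37528078-37538319, plus strand) encodes an adhesion molecule of endothelial tight junctions and platelets. It was at 0.231, 0.0830 and 0.118 FPKM in control and 0.777, 0.733 and 0.613 in knockout libraries with osteogenic medium, and at 0.870, 0.350 and 0.689 in control and 0.520, 0.722 and 0.551 in knockout libraries in adipogenic medium. The control osteogenic libraries, with 12, 4 and 6 fragments, were lowest, and the other 3 groups overlapped. The ratio was 4.85 (3.05 to 8.05) in osteogenic medium. With adipogenic medium it was 0.976 (0.727 to 1.31), or 0.766 (0.559 to 1.05) without control adipogenic library 2.

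Cldn5 (ENSMUSG00000041378, chr16:18776847-18778262, plus strand) encodes the main claudin of endothelial tight junctions. It was at 0 in 11 libraries and at 0.0781 FPKM, from 2 fragments, in knockout osteogenic library 2. A count of 0 allows up to 3 fragments, which for this short gene equal 0.116 to 0.126 FPKM in the osteogenic and 0.101 to 0.131 FPKM in the adipogenic libraries. All values of Cldn5 lay under these limits, so a difference between groups was not detectable at this depth.

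Egfl7 (ENSMUSG00000026921, chr2:26580014-26593120, plus strand) encodes a secreted protein of the endothelial matrix and is host to the microRNA gene Mir126a. It was at 0.431, 0.415 and 0.300 FPKM in control and 0.948, 0.803 and 0.920 in knockout libraries with osteogenic medium, and at 0.459, 0.494 and 0.465 in control and 0.580, 0.963 and 0.999 in knockout libraries in adipogenic medium. The control osteogenic libraries were lowest, the control adipogenic libraries came next, and the knockout groups lay above both and overlapped each other. The ratio was 2.33 (1.76 to 3.11) in osteogenic and 1.79 (1.38 to 2.33) in adipogenic medium, or 1.84 without control adipogenic library 2. Egfl7 shares 264 exonic bases with Gm20532, which was at 0 FPKM, and 64 bases with Agpat2 on the opposite strand, which was at 11.8 to 17.9 FPKM. The sources used here do not say whether strand was used, so part of the reads on these bases could belong to either gene and the level of Egfl7 is uncertain to that extent.

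Counted over the 10 genes, the knockout libraries lay above all control libraries for 7 in osteogenic medium, for 6 in adipogenic medium and for 5 in both (Cdh5, Emcn, Tie1, Tek and Egfl7). Of the 14808 genes with a mean of at least 10 fragments, 21.3% did so in osteogenic medium, 20.4% in adipogenic medium and 5.62% in both. Nothing is read from these counts, since the 10 genes were chosen by this comparison. Summed over the 10 genes, the level was 3.48, 3.51 and 3.47 FPKM in control and 10.3, 9.74 and 9.35 in knockout libraries with osteogenic medium. In adipogenic medium the sum was 5.72, 4.62 and 5.78 FPKM in control and 7.76, 10.2 and 9.60 in knockout libraries. The whole sum was small beside the level of abundant stromal or macrophage genes such as Col1a1 and Lyz2.

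**Figure D2:**
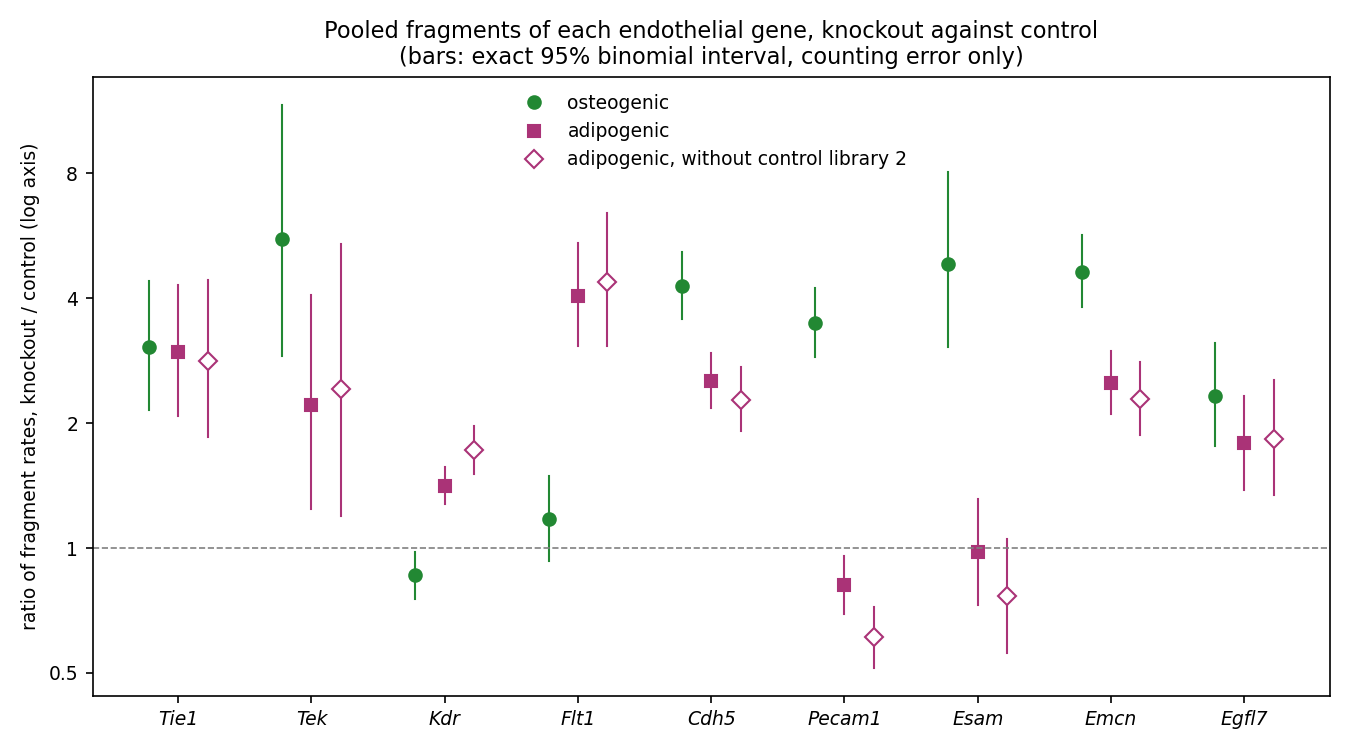
Ratio of knockout to control fragments per depth (vertical, log axis) for 9 genes in osteogenic medium, in adipogenic medium and in adipogenic medium without control library 2, with points for the pooled ratio and bars for the exact 95% binomial interval, which covers counting error only. The ratio of Tek was 5.55 in osteogenic and 2.21 in adipogenic medium, that of Flt1 1.18 and 4.06, and that of Pecam1 3.49 and 0.815.

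The genes were not chosen by a difference between media, and the comparison of adipogenic with osteogenic medium was tested within each genotype. The choice used the same libraries, so this comparison is not independent of it. Low control or high knockout values in either medium favoured the choice of a gene and also enter the comparison of media. Among control libraries Pecam1 was higher in adipogenic medium, by 0.50 on the log2(FPKM + 1) scale (SE 0.155, 95% interval 0.15 to 0.84, limma adjusted p = 0.0442). It was higher in 3 of 3 libraries, of which library 2, at 0.476 FPKM, lay just above the highest control osteogenic value of 0.452. It was the 1 of 4 tested genes that passed, higher, against 10.5% of all 12871 genes tested that passed as higher and 12.3% as lower. Cdh5 differed by 0.30 (limma adjusted p = 0.0966), Emcn by 0.20 (limma adjusted p = 0.112) and Kdr by 0.10 (limma adjusted p = 0.59), none of which passed. Pecam1, Cdh5 and Emcn did not meet the filter through control libraries alone. With the filter met in each genotype, Kdr was the 1 member tested, and it was not called here. The median of the 4 was 0.25, beside 0.01 over all genes tested. The call of Pecam1 was lost when any 1 of the 11 libraries other than control adipogenic library 2 was left out. By limma on FPKM, no member passed under TPM scaling, in a fit of only the 6 libraries compared or with a replicate block, so the call rests on the choice of fit. Without library 2, Pecam1 (0.72, limma adjusted p = 5.35e-05), Cdh5 (0.37, limma adjusted p = 0.0364) and Emcn (0.25, limma adjusted p = 0.0497) passed as higher, while Kdr was at −0.02 (limma adjusted p = 0.872). With that library left out, 24.5% of all genes passed as higher and 23.3% as lower.

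Among libraries labelled knockout, Kdr was higher in adipogenic medium in 3 of 3 libraries, by 0.52 on the log2(FPKM + 1) scale (SE 0.118, 95% interval 0.26 to 0.79, limma adjusted p = 0.00861). It was again 1 of 4 that passed, against 13.9% of all genes as higher and 14.0% as lower. Emcn differed by −0.20 (limma adjusted p = 0.11) and Cdh5 by −0.09 (limma adjusted p = 0.611), neither past the threshold. Pecam1, the other of the 4, reached 1 FPKM in all knockout osteogenic and in no knockout adipogenic libraries, so no limma result is read for it in this comparison. Kdr reached 1 FPKM in all knockout adipogenic and in no knockout osteogenic libraries. It also met the filter through control libraries alone, and was called with the filter met in each genotype. The spread is estimated over all 12 libraries, so the library that stood apart also bears on this comparison. Whether the medium effect differed between the genotypes was not tested for the 10 genes, because that difference is also the one by which the genotype effect differs between media.

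Genes under 1 FPKM entered only the limma voom fit on recovered fragments, which was added after seeing the data and gives log2 fold changes without a pseudocount of 1. Among control libraries it called Esam higher in adipogenic medium, by 2.03 (SE 0.463, 95% interval 1.00 to 3.05, limma voom adjusted p = 0.0138), and Flt1 lower, at −1.09 (SE 0.268, 95% interval −1.68 to −0.50, limma voom adjusted p = 0.0184). These were 1 higher and 1 lower of 9 tested, against 8.69% and 11.1% of all 14808 genes. Pecam1, at 1.10 (limma voom adjusted p = 0.0766), did not pass in this fit, but it passed when a replicate block was added to it. Without control adipogenic library 2, 4 passed as higher (Esam at 2.45, Pecam1 at 1.66, Cdh5 at 0.79 and Emcn at 0.73) and Flt1 as lower, at −1.19, against 24.0% and 21.3% of all genes. Among libraries labelled knockout, Kdr was higher by 0.94 (SE 0.193, limma voom adjusted p = 0.00478) and Flt1 by 0.67 (SE 0.19, limma voom adjusted p = 0.0235). These were 2 of 9 as higher, against 13.6% of all genes, with 13.5% as lower. Pecam1 differed by −0.84 (limma voom adjusted p = 0.0651). Without the library that stood apart, Pecam1, again at −0.84, and Emcn, at −0.31, also passed as lower, so that 2 of 9 were higher and 2 lower, against 20.6% and 21.4% of all genes. On all libraries, with a mean of at least 10 fragments asked of each genotype, 8 were tested, without Tek. The calls were again Esam and Flt1 in control and Kdr and Flt1 in knockout libraries.

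**Figure D3:**
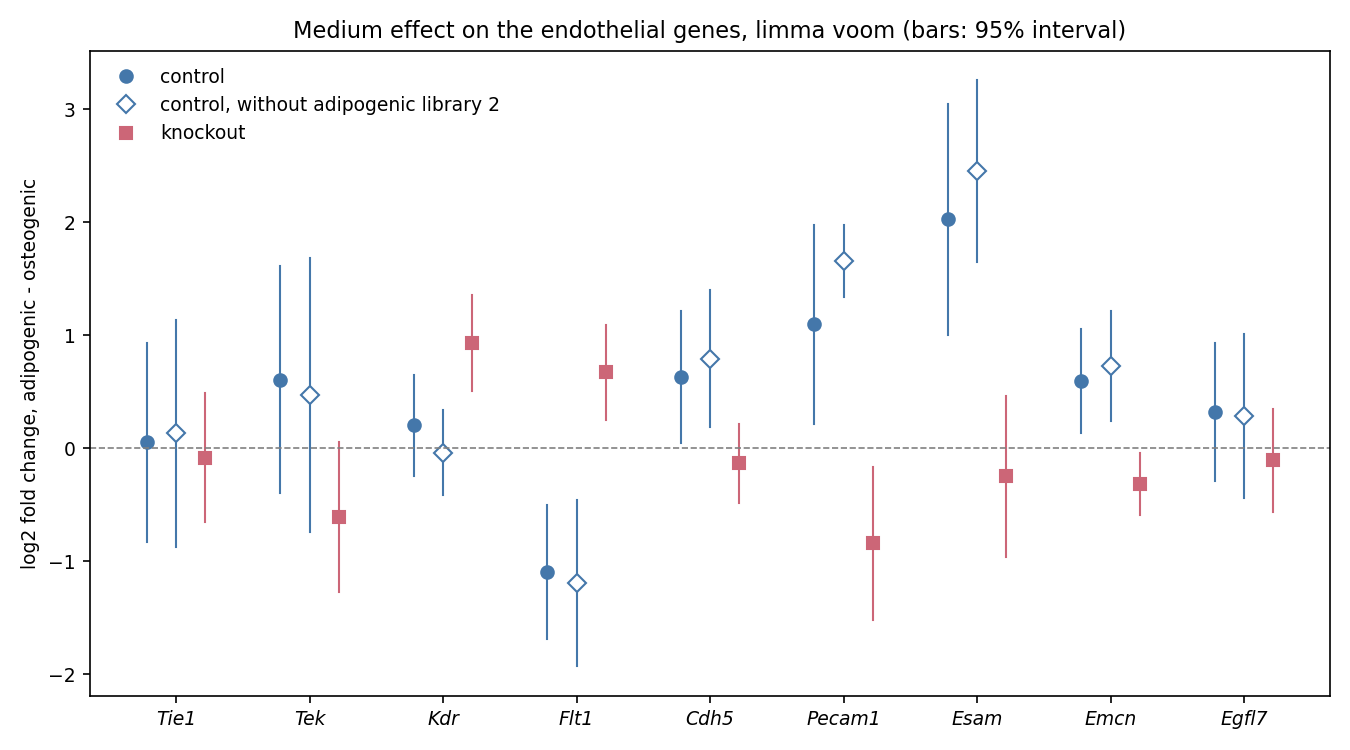
Log2 fold change of adipogenic against osteogenic medium (vertical, limma voom, with bars for the 95% interval) for 9 genes in control libraries, in control libraries without adipogenic library 2 and in knockout libraries. Flt1 was at −1.09 in control and 0.67 in knockout libraries, and Esam was at 2.03 in control libraries.

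Other endothelial genes, 72 on 4 lists, were tested for the genotype effect. In osteogenic medium 9 of 35 that passed the filter were higher and 1 was lower in the libraries labelled knockout, against 4.94% and 4.15% of all genes. The median log2 fold change of the 35 was 0.09, beside −0.01 over all genes tested. In adipogenic medium 11 were higher and 9 lower, against 16.7% and 16.5% of all genes, with a median of 0.11 beside −0.01. Adgrl4, Apln, Esm1 and Icam2 did not pass the filter in each genotype taken alone, and the first 3 reached 1 FPKM in knockout libraries alone, so they had to differ to be tested. With a filter that control and knockout libraries each had to meet, added after seeing the data, 6 of 31 were higher and 1 lower in osteogenic medium, against 5.11% and 4.30% of all 11895 genes, with a median of 0.06. In adipogenic medium 10 were then higher and 9 lower, against 17.0% and 17.3%, with a median of 0.13. Without control adipogenic library 2 the counts were 14 of 35 higher and 4 lower in osteogenic medium, against 11.4% and 10.8% of all genes. In adipogenic medium they were then 14 higher and 11 lower, against 24.3% and 26.8% of all genes. Without that library and with the filter met in each genotype, also added after seeing the data, they were 11 of 31 higher and 5 lower in osteogenic medium, against 11.9% and 11.4%, and 13 higher and 11 lower in adipogenic medium, against 24.9% and 27.8%. The adipogenic count of 20 fell to 13 without control adipogenic library 1, to 13 without library 3 and to 13 without knockout adipogenic library 2. Each time 7 were higher and 6 lower. The share of all genes called in these fits is not given. The fall is therefore not read as particular to the endothelial genes. In a fit of only the 6 libraries compared, 24 were called in osteogenic medium, 16 higher and 8 lower, against 26.6% of all genes in either direction, and 6 were higher and 3 lower in adipogenic medium, against 7.87% and 5.11%. Under TPM scaling 6 of 35 were higher in osteogenic medium, against 2.14% of all genes, with 1.95% lower, and 14 higher and 6 lower in adipogenic medium, against 25.3% and 6.99%. The added limma voom fit tested 51 of the 72 genes. It called 14 higher and 2 lower in osteogenic medium, against 5.10% and 3.87% of all genes, with a median of 0.19. In adipogenic medium it called 19 higher and 7 lower, against 16.3% and 14.6%, with a median of 0.37. Of the 51, Erg, Bcl6b, Robo4, Myct1, Cyyr1 and Lyve1 had a mean under 10 fragments in control libraries and passed this filter through knockout libraries. With a mean of at least 10 fragments asked of each genotype, limma voom called 11 of 45 higher and 2 lower in osteogenic medium, against 5.10% and 3.95% of all 14423 genes, with a median of 0.12, and 15 higher and 7 lower in adipogenic medium, against 16.3% and 14.8%, with a median of 0.20. Rescaling every library to an equal FPKM total (TPM) moved the median of all genes in adipogenic medium from −0.01 to 0.14 and the share of higher calls among all genes called from 50.4% to 78.3%. It moved that share from 46.1% to 30.7% for the medium in control libraries, where the median went to −0.10, from 49.7% to 65.4% for the medium in knockout libraries and from 53.1% to 75.3% for the interaction, where the median went to 0.16.

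Of the surface and cytoplasmic genes, 5 passed the FPKM filter in each genotype, of which 1 was higher in osteogenic medium, against 5.11% of all genes, and 2 were higher and 1 lower in adipogenic medium in the libraries labelled knockout, against 17.0% and 17.3%, with medians of 0.09 and 0.28. Without control adipogenic library 2 the counts were 1 higher, against 11.9%, and 3 higher and 1 lower, against 24.9% and 27.8%. Plvap, which forms the diaphragms of endothelial fenestrae, was at 1.58, 1.17 and 1.05 FPKM in control and 4.15, 4.53 and 3.76 in knockout libraries. It was higher by 1.19 (SE 0.124, limma adjusted p = 0.000427), and in adipogenic medium it was higher by 0.57 (SE 0.124, limma adjusted p = 0.00639), with values of 1.53, 0.962 and 1.68 in control and 2.63, 2.51 and 2.44 in knockout libraries. Adgrl4, an adhesion receptor of vascular cells, reached 1 FPKM only in knockout libraries and is given by limma voom, whose filter it met in each genotype. It was at 0.373, 0.324 and 0.296 FPKM in control and 1.49, 1.10 and 1.27 in knockout libraries with osteogenic medium, a difference of 1.93 (SE 0.231, limma voom adjusted p = 0.000686), and was also higher in adipogenic medium, by 1.53 (SE 0.236, limma voom adjusted p = 0.000873). The knockout libraries of Plvap and of Adgrl4 lay above all control libraries in each medium.

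Esm1, a secreted proteoglycan of sprouting endothelium, and Apln, a ligand of endothelial tip cells, reached 1 FPKM only in the knockout osteogenic libraries, and are likewise given by limma voom. Esm1 was at 0.368, 0.284 and 0.513 FPKM in control and 2.34, 2.16 and 1.52 in knockout libraries, higher by 2.34 (SE 0.454, limma voom adjusted p = 0.01). Apln was at 0.508, 0.416 and 0.611 FPKM in control and 1.75, 1.77 and 1.80 in knockout libraries, higher by 1.79 (SE 0.238, limma voom adjusted p = 0.00128). In adipogenic medium the groups of both genes overlapped, with differences of 0.47 for Esm1 (limma voom adjusted p = 0.484) and −0.06 for Apln (limma voom adjusted p = 0.888). The interaction of genotype and medium was −1.85 for Apln (limma voom adjusted p = 0.00573). That of Esm1 was −1.87 (limma voom adjusted p = 0.0728), and it passed without control adipogenic library 2, at −2.51 (limma voom adjusted p = 0.00149). Arap3, a regulator of small GTPases, was lower in adipogenic medium, at −1.28 (SE 0.106, limma adjusted p = 2.79e-05).

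Of 11 receptor and co-receptor genes tested, 3 were higher in osteogenic medium, against 4.94% of all genes, while 3 were higher and 6 lower in adipogenic medium, against 16.7% and 16.5%, with medians of 0.28 and −0.47. Leaving out control adipogenic library 2 gave 6 higher in osteogenic medium, against 11.4%, and 3 higher and 7 lower in adipogenic medium, against 24.3% and 26.8%. S1pr1, a sphingosine 1-phosphate receptor, went in opposite directions. It was at 23.7, 24.0 and 22.7 FPKM in control and 29.7, 31.0 and 29.6 in knockout libraries with osteogenic medium, higher by 0.35 (SE 0.0564, limma adjusted p = 0.00459). In adipogenic medium it was at 31.3, 29.3 and 30.3 FPKM in control and 11.4, 13.4 and 12.7 in knockout libraries, lower, at −1.21 (SE 0.0564, limma adjusted p = 7.14e-07), and neither comparison had an overlap. Thbd, the thrombomodulin gene, chosen after its values were seen, likewise was higher in osteogenic medium, by 0.72 (SE 0.112, limma adjusted p = 0.00372), and lower in adipogenic medium, at −0.47 (SE 0.112, limma adjusted p = 0.0104), with an interaction of −1.18 (limma adjusted p = 0.000827). Notch4, a Notch receptor of endothelium, was at 0.830, 0.836 and 0.888 FPKM in control and 2.97, 3.68 and 3.88 in knockout libraries in adipogenic medium, higher by 1.28 (SE 0.0847, limma adjusted p = 6.5e-06). Its difference in osteogenic medium was −0.09 (limma adjusted p = 0.617) and its interaction 1.36 (limma adjusted p = 7.23e-05). Plxnd1, a semaphorin receptor, at −0.80 (limma adjusted p = 0.0148), and Calcrl, a receptor for adrenomedullin, at −0.78 (limma adjusted p = 0.0402), were lower in adipogenic medium, with interactions of −0.79 (limma adjusted p = 0.0854) and −0.69 (limma adjusted p = 0.205). Both interactions passed without control adipogenic library 2, at −0.97 (limma adjusted p = 0.0158) and −1.06 (limma adjusted p = 0.000395). For Plxnd1 that library, at 38.2 FPKM, lay below knockout adipogenic library 1, at 40.8, so the groups overlapped. For Calcrl that library, at 2.68 FPKM, lay among the knockout libraries, at 3.23, 2.57 and 2.11, and limma voom on all libraries did not call Calcrl in adipogenic medium (limma voom adjusted p = 0.0708). Procr was lower there, at −2.45 (SE 0.723, limma adjusted p = 0.0264), although control library 2 lay with the knockout libraries, at 6.48, 4.65 and 5.28 FPKM. Limma voom on all libraries did not call it (limma voom adjusted p = 0.0942). The interaction of Procr was −3.16 (limma adjusted p = 0.0533), or −4.30 without that library (limma adjusted p = 7.31e-08). Its difference in adipogenic medium was then −3.59 (limma adjusted p = 2.06e-08), and in osteogenic medium Procr passed as higher, by 0.71 (limma adjusted p = 0.000451).

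Of 11 endothelial transcription factor genes tested, 1 was higher and 1 lower in osteogenic medium, against 4.94% and 4.15% of all genes, and 3 were higher and 2 lower in adipogenic medium, against 16.7% and 16.5%, with medians of 0.00 and 0.13. The counts without control adipogenic library 2 were 3 higher and 3 lower in osteogenic medium, against 11.4% and 10.8%, and 5 higher and 3 lower in adipogenic medium, against 24.3% and 26.8%. Klf2, which responds to blood flow in vessels, was higher in osteogenic medium by 0.38 (SE 0.0817, limma adjusted p = 0.018), and its difference in adipogenic medium was 0.19 (limma adjusted p = 0.106, interaction −0.19, limma adjusted p = 0.258). With control adipogenic library 2 left out, Klf2 passed in adipogenic medium too, at 0.24 (limma adjusted p = 0.04). Foxc2, a forkhead factor of lymphatic and arterial vessels, was higher in adipogenic medium by 0.75 (SE 0.0864, limma adjusted p = 0.000187), Hey1, a target of Notch, by 0.72 (SE 0.201, limma adjusted p = 0.0208) and Klf4, a factor of many epithelia and of endothelium, by 0.56 (SE 0.144, limma adjusted p = 0.0146). The interaction of Hey1 was 0.72 (limma adjusted p = 0.103), and it passed without control adipogenic library 2, at 0.93 (limma adjusted p = 0.0101). Lmo2, a partner of haematopoietic and endothelial factors, was lower there, at −0.69 (SE 0.0781, limma adjusted p = 0.000168). In osteogenic medium Lmo2 differed by 0.20 (limma adjusted p = 0.162) and passed without control adipogenic library 2 (limma adjusted p = 0.0435). Fli1, an ETS factor, was the gene lower in both media, at −0.32 (limma adjusted p = 0.00449) and −0.25 (limma adjusted p = 0.0055), and was chosen for mention after its values were seen. Etv2 was at 0 in all libraries.

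The list of arterial, venous, sinusoidal and lymphatic genes had 4 tested, of which 1 was higher in osteogenic medium, against 4.94% of all genes, and 2 were higher in adipogenic medium, against 16.7%, with medians of 0.00 and 0.43. By the fit without control adipogenic library 2, 1 was higher and 1 lower in osteogenic medium, against 11.4% and 10.8%, and 2 were higher in adipogenic medium, against 24.3%. Ephb4, the venous receptor of ephrin B2, was higher in osteogenic medium by 0.35 (SE 0.0518, limma adjusted p = 0.00283) and differed by 0.00 in adipogenic medium (limma adjusted p = 0.976), with an interaction of −0.35 (limma adjusted p = 0.00903). Efnb2, the arterial ligand ephrin B2, was higher in adipogenic medium by 0.67 (SE 0.0868, limma adjusted p = 0.000383) and had an interaction of 0.61 (limma adjusted p = 0.00741). Stab1, a scavenger receptor of sinusoids and of macrophages, was the most abundant of this list, at 119 to 316 FPKM. It was higher in adipogenic medium by 0.62 (SE 0.156, limma adjusted p = 0.0135), and in osteogenic medium, at −0.31 (limma adjusted p = 0.277), it passed as lower without control adipogenic library 2 (limma adjusted p = 0.0262).

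The interaction of genotype and medium was tested for the same 35 genes. It was more positive in adipogenic medium for 5, against 10.9% of all genes, and more negative for 9, against 9.58%. The median was 0.02, beside 0.00 over all genes tested. Of the 31 genes that passed the filter in each genotype, it was more positive for 5, against 11.2% of all genes, and more negative for 7, against 10.2%. Without control adipogenic library 2 the counts of the 35 were 9 and 14, against 19.7% and 22.5%, and those of the 31 were 9 and 12, against 43.9% of all genes in either direction. Of the genes with a negative interaction, S1pr1 was at −1.56 (limma adjusted p = 2.31e-06), Arap3 at −1.10 (limma adjusted p = 0.000918), Lmo2 at −0.89 (limma adjusted p = 0.000563), Nrp2, a receptor for semaphorins and vascular endothelial growth factor C, at −0.75 (limma adjusted p = 0.013) and Plvap at −0.61 (limma adjusted p = 0.0338), which limma voom did not call (limma voom adjusted p = 0.0832). Of those with a positive one, Stab1 was at 0.92 (limma adjusted p = 0.016), Klf4 at 0.73 (limma adjusted p = 0.0299) and Foxc2 at 0.57 (limma adjusted p = 0.0101).

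Among genes too low for the FPKM filter, Ptprb, which encodes VE-PTP, a phosphatase that acts on Tek and VE-cadherin, was at 0.0414, 0.0803 and 0.0764 FPKM in control and 0.505, 0.369 and 0.486 in knockout libraries with osteogenic medium. In adipogenic medium Ptprb was at 0.114, 0.0788 and 0.125 FPKM in control and 0.200, 0.251 and 0.205 in knockout libraries. The knockout libraries lay above the control libraries in both media, by 2.79 (SE 0.287, limma voom adjusted p = 0.00029) and 1.07 (SE 0.268, limma voom adjusted p = 0.0122), and the interaction was −1.72 (limma voom adjusted p = 0.0126). Mmrn2, Clec14a, Erg, Robo4, Myct1, Cyyr1 and Lyve1 were chosen after their values were seen. Mmrn2, a protein of the endothelial matrix, was higher by 2.30 in osteogenic and 1.15 in adipogenic medium (limma voom adjusted p = 0.00532 and 0.0368). Clec14a was higher in adipogenic medium by 1.46 (limma voom adjusted p = 0.0103), with an interaction of 1.40 (limma voom adjusted p = 0.107). The other 5 had a mean of at least 10 fragments only through knockout libraries, so their fragments are a description and no test of them is given. Erg, an ETS factor of endothelial identity, had 3, 4 and 1 fragments in control and 29, 17 and 21 in knockout libraries with osteogenic medium, and 3, 4 and 6 in control and 14, 20 and 21 in knockout libraries with adipogenic medium. Robo4, a guidance receptor of vessels, had 10, 10 and 14 against 28, 32 and 36 in osteogenic and 7, 10 and 2 against 19, 37 and 34 in adipogenic medium. Myct1 had 4, 1 and 2 against 23, 16 and 20 and then 7, 5 and 7 against 22, 7 and 15, and Cyyr1 had 9, 3 and 3 against 17, 8 and 21 and then 3, 4 and 4 against 18, 37 and 24. Lyve1, a hyaluronan receptor of lymphatic vessels and of some macrophages, had 12, 13 and 18 against 5, 1 and 3 and then 3, 3 and 0 against 35, 13 and 25. Counts of 3 or fewer are at the limit of this depth.

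**Figure D4:**
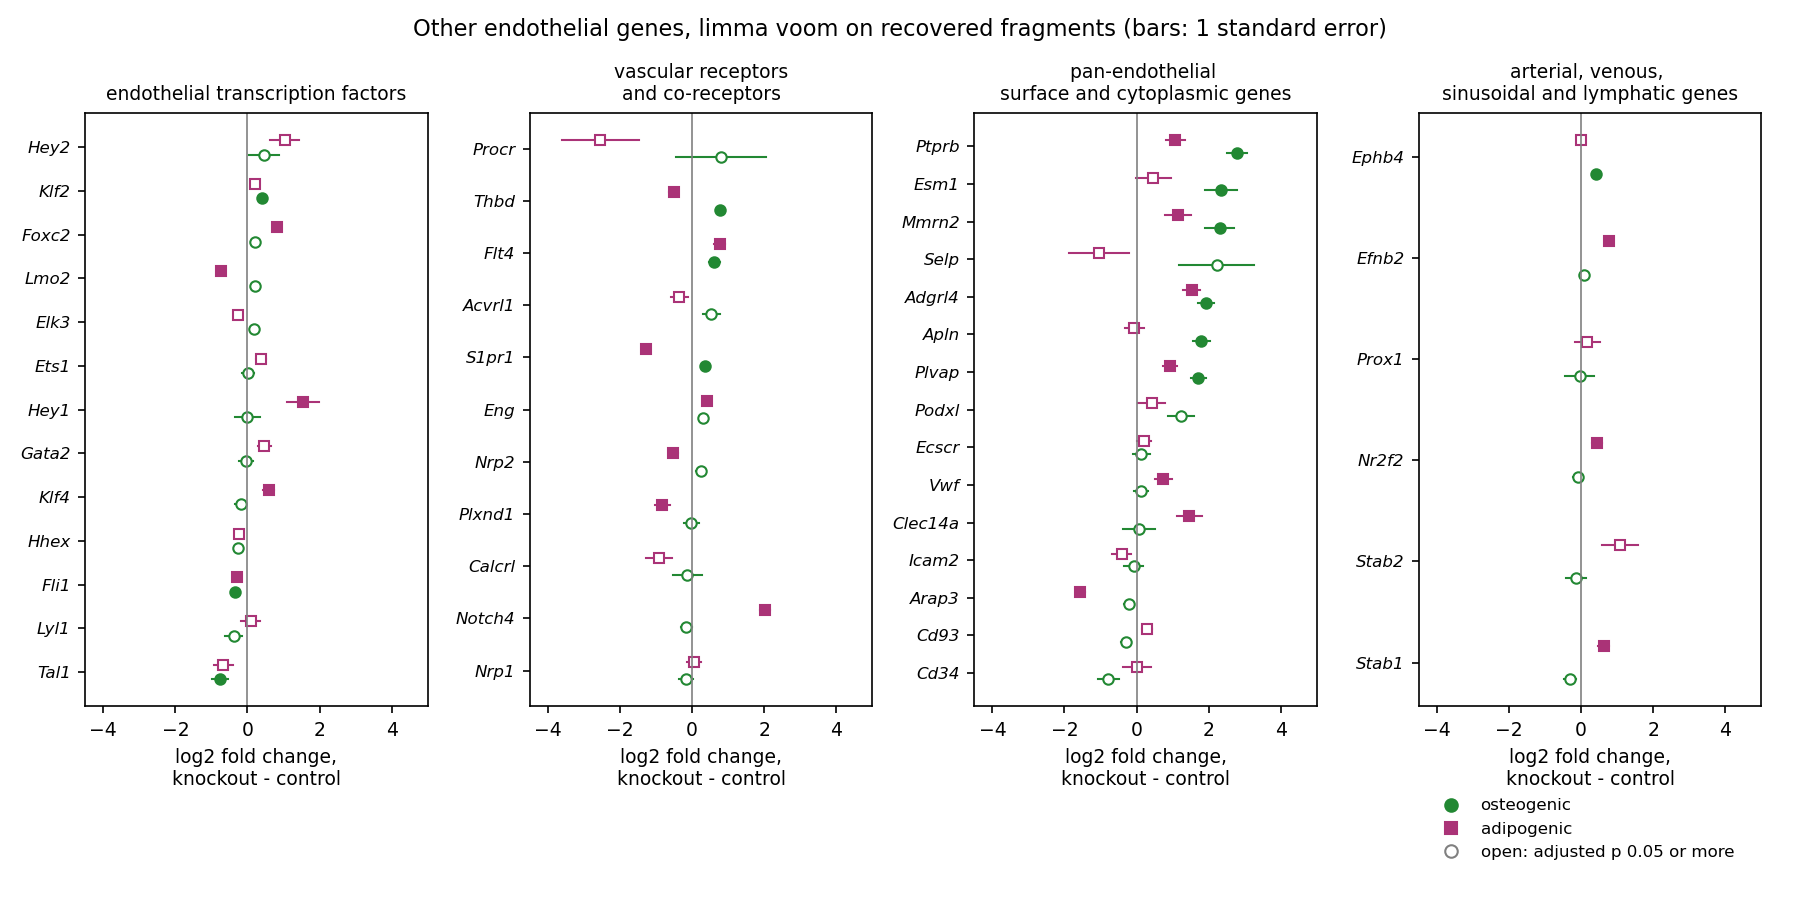
Log2 fold change of knockout against control (horizontal, limma voom, added after seeing the data) with bars of 1 SE for the 45 other endothelial genes with a mean of at least 10 fragments in each genotype, in osteogenic and adipogenic medium, with filled points for an adjusted p under 0.05 and open points for the rest. Ptprb was at 2.79 and 1.07 in the media, and S1pr1 lay on opposite sides of 0.

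The ligands of the vascular receptors had 8 genes tested. In osteogenic medium 2 were higher in the libraries labelled knockout, against 4.94% of all genes, and in adipogenic medium 4 were higher and 1 lower, against 16.7% and 16.5%, with medians of 0.26 and 0.68. The counts without control adipogenic library 2 were 5 higher and 1 lower in osteogenic medium, against 11.4% and 10.8%, and 5 higher and 2 lower in adipogenic medium, against 24.3% and 26.8%. Angpt1, the activating ligand of Tek, was at 1.10, 1.20 and 1.21 FPKM in control and 2.68, 2.57 and 2.31 in knockout libraries with osteogenic medium, higher by 0.70 (SE 0.132, limma adjusted p = 0.01). In adipogenic medium Angpt1 differed by −0.10 (limma adjusted p = 0.599), and the interaction was −0.80 (limma adjusted p = 0.0148). With control adipogenic library 2 left out, it passed there as lower, at −0.27 (limma adjusted p = 0.0175). Angpt4, another angiopoietin, was higher in osteogenic medium by 0.45 (SE 0.0961, limma adjusted p = 0.017) and in adipogenic medium by 0.79 (SE 0.0961, limma adjusted p = 0.000265). Pgf, a ligand of Flt1, was at 1.32, 1.70 and 1.34 FPKM in control and 6.38, 6.36 and 6.65 in knockout libraries in adipogenic medium, higher by 1.61 (SE 0.0843, limma adjusted p = 1.55e-06). In osteogenic medium it differed by 0.30 (limma adjusted p = 0.0564, interaction 1.31, limma adjusted p = 8.77e-05), and it passed there without control adipogenic library 2 (limma adjusted p = 0.0163).

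Vegfd, a ligand of Flt4, was higher in adipogenic medium by 1.00 (SE 0.115, limma adjusted p = 0.000182), with an interaction of 1.38 (limma adjusted p = 0.000402). With that library left out, Vegfd also passed as lower in osteogenic medium, at −0.37 (limma adjusted p = 0.0312). Angpt2, which can block Tek, was higher in adipogenic medium by 0.87 (SE 0.0954, limma adjusted p = 0.000143). In osteogenic medium it differed by 0.26 (limma adjusted p = 0.135, interaction 0.61, limma adjusted p = 0.0114), and it passed there without that library (limma adjusted p = 0.0355). Vegfa, the main ligand of Kdr, was lower in adipogenic medium, at −0.69 (SE 0.239, limma adjusted p = 0.0485), with 51.2, 23.1 and 50.1 FPKM in control and 25.5, 23.8 and 22.2 in knockout libraries. Without library 2 this was −1.06 (limma adjusted p = 1.51e-06), and Vegfa passed as higher in osteogenic medium, at 0.27 (limma adjusted p = 0.011). Vegfb, a ligand of Flt1, differed by 0.58 in adipogenic medium (limma adjusted p = 0.0791), and by 0.93 without library 2 (limma adjusted p = 2.99e-06). Vegfc, a ligand of Flt4, differed by 0.44 (limma adjusted p = 0.227).

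Of 9 cell junction partners tested, 2 were higher in osteogenic medium, against 4.94% of all genes, and 5 in adipogenic medium in the libraries labelled knockout, against 16.7%, with medians of 0.12 and 0.30. By the fit without control adipogenic library 2, 4 were higher in osteogenic medium, against 11.4%, and 6 in adipogenic medium, against 24.3%. Ctnnb1 was the most abundant. Jup, the plakoglobin that binds cadherin tails, was higher by 0.72 (SE 0.0899, limma adjusted p = 0.00121) in osteogenic and 0.78 (SE 0.0899, limma adjusted p = 0.00018) in adipogenic medium. Tjp1, a tight junction scaffold, was higher in osteogenic medium by 0.45 (limma adjusted p = 0.0129) and differed by 0.18 in adipogenic medium (limma adjusted p = 0.15, interaction −0.27, limma adjusted p = 0.16), and its interaction passed without control adipogenic library 2, at −0.36 (limma adjusted p = 0.0221). Jam2, a junctional adhesion molecule, was higher in adipogenic medium by 1.02 (SE 0.0952, limma adjusted p = 5.57e-05), Jam3 by 0.33 (limma adjusted p = 0.0275) and Ctnnd1, which stabilises cadherins, by 0.32 (limma adjusted p = 0.00219). Their interactions were 0.96 (limma adjusted p = 0.00101), 0.10 (limma adjusted p = 0.627) and 0.37 (limma adjusted p = 0.0104). These genes are known in many cell types besides endothelium.

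Markers of other cell types moved with the same groups, and their part in the results above was not tested. Of 9 macrophage and pan-haematopoietic markers, 1 was lower in osteogenic medium, against 4.15% of all genes, and 7 were lower in adipogenic medium in the libraries labelled knockout, against 16.5%, with medians of −0.13 and −1.01. In the fit without control adipogenic library 2, 1 was higher and 3 lower in osteogenic medium, against 11.4% and 10.8%, and 1 higher and 8 lower in adipogenic medium, against 24.3% and 26.8%. Their summed level, most of it Lyz2, was 10888, 11299 and 11196 FPKM in control and 12930, 12717 and 12696 in knockout libraries with osteogenic medium. Lyz2 alone was at 8957, 9355 and 9234 FPKM in control and 11249, 11033 and 11056 in knockout libraries there. The osteogenic mean of each other marker on the list was lower in knockout libraries. With adipogenic medium the sum was 16730, 7257 and 17158 in control and 6534, 5109 and 5267 in knockout libraries. Lyz2, the most abundant, was lower in adipogenic medium, at −1.28 (limma adjusted p = 0.00991), as were Adgre1, at −2.05 (limma adjusted p = 0.0156), Itgam, at −1.53 (limma adjusted p = 0.00696), and Ptprc, at −1.01 (limma adjusted p = 0.00559). The interaction was −1.55 for Lyz2 (limma adjusted p = 0.0293) and −1.92 for Adgre1 (limma adjusted p = 0.101), which passed without control adipogenic library 2, at −2.70 (limma adjusted p = 0.00016). Csf1r was lower in both media, at −0.68 (limma adjusted p = 0.0136) and −0.80 (limma adjusted p = 0.00186). Cd68 differed by 0.01 in adipogenic medium (limma adjusted p = 0.967), and by 0.27 without control adipogenic library 2 (limma adjusted p = 0.000277). Several of the endothelial genes tested, such as Lmo2, Stab1 and Nrp2, are also known in macrophages.

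Of 9 pericyte and mural cell markers, 4 were tested, of which 2 were higher in osteogenic medium, against 4.94% of all genes, and 4 in adipogenic medium in the libraries labelled knockout, against 16.7%, with medians of 0.27 and 0.86. The counts were also 2 and 4 without control adipogenic library 2, against 11.4% and 24.3%. The sum of all 9, most of it Acta2, was 726, 766 and 733 FPKM in control and 1001, 956 and 1003 in knockout libraries with osteogenic medium. With adipogenic medium it was 852, 1164 and 834 in control and 1320, 1449 and 1506 in knockout libraries. Mcam was higher by 0.62 (limma adjusted p = 0.0101) and 1.10 (limma adjusted p = 0.000118), and Acta2 by 0.41 (limma adjusted p = 0.0479) and 0.59 (limma adjusted p = 0.00319). Notch3 was higher in adipogenic medium by 1.05 (limma adjusted p = 7.43e-05) and Cspg4 by 0.67 (limma adjusted p = 0.00553), with interactions of 1.04 (limma adjusted p = 0.00106) and 0.53 (limma adjusted p = 0.0855). That of Cspg4 passed without control adipogenic library 2, at 0.66 (limma adjusted p = 0.0136). Rgs5, a defining pericyte marker, was low, at 0.118 to 0.820 FPKM.

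Of 11 mesenchymal stromal markers, 8 passed the filter in each genotype. By limma on genes that did so, 3 of the 8 were higher in osteogenic medium, against 5.11% of all genes, and 5 higher and 2 lower in adipogenic medium, against 17.0% and 17.3%, with medians of 0.15 and 0.27. Leaving out control adipogenic library 2 gave 3 higher and 1 lower in osteogenic medium, against 11.9% and 11.4%, and 5 higher and 2 lower in adipogenic medium, against 24.9% and 27.8%. Their sum, most of it Col1a1, was 1171, 1030 and 1092 FPKM in control and 1247, 1135 and 1246 in knockout libraries with osteogenic medium, and 1561, 1321 and 1410 in control and 1433, 1488 and 1481 in knockout libraries in adipogenic medium. Prrx1, whose promoter drives the Cre, was higher by 0.20 (limma adjusted p = 0.0305) and 0.39 (limma adjusted p = 0.000323). Cxcl12, a chemokine of marrow stroma, was higher in osteogenic medium by 0.64 (limma adjusted p = 0.0023) and lower in adipogenic medium, at −0.39 (limma adjusted p = 0.00932). Nt5e reached 1 FPKM only in the knockout osteogenic libraries. By limma voom, whose filter it met in each genotype, it was higher in osteogenic medium by 1.19 (limma voom adjusted p = 0.0115), with −0.69 in adipogenic medium (limma voom adjusted p = 0.102, interaction −1.88, limma voom adjusted p = 0.00681), where it passed as lower without control adipogenic library 2 (−1.12, limma voom adjusted p = 0.000127). In adipogenic medium Pdgfrb was higher by 0.82 (limma adjusted p = 0.000126), Twist1 by 0.58 (limma adjusted p = 0.0139), and Ly6a was lower, at −0.90 (limma adjusted p = 0.000548). Pdgfra differed by −0.27 (limma adjusted p = 0.206) and 0.33 (limma adjusted p = 0.0508, or 0.0497 with the filter met in each genotype), and without control adipogenic library 2 it passed as lower in osteogenic medium (limma adjusted p = 0.00772) and as higher, by 0.17, in adipogenic medium (limma adjusted p = 0.0399).

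Pecam1 and Esam are also known in platelets, and whether platelets contributed to their values was not tested. Of 8 megakaryocyte and platelet markers 2 passed the FPKM filter in each genotype. In osteogenic medium limma called 0 of 2, with 1 at an unadjusted p under 0.05, and limma voom called 0 of 4, with 1 at an unadjusted p under 0.05. In adipogenic medium 1 of 2 was lower in the libraries labelled knockout, Pf4, at −1.80 (limma adjusted p = 3.22e-07), against 17.3% of all genes. Limma without control adipogenic library 2 called 0 of 2 in osteogenic medium, and 1 higher and 1 lower in adipogenic medium, against 24.9% and 27.8%. Ppbp passed the filter only through the control adipogenic libraries, at 2.64, 1.28 and 2.91 FPKM, so no test of it is given, and it was at 0.344, 0.245 and 0.340 in the knockout adipogenic libraries. The sum, nearly all of it Pf4, was 74.7, 82.3 and 77.9 FPKM in control and 91.0, 88.0 and 85.2 in knockout libraries with osteogenic medium, and 88.8, 91.1 and 101 in control and 28.1, 30.6 and 26.1 in knockout libraries in adipogenic medium. The defining marker Itga2b was low, at 0.162 to 0.434 FPKM.

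Of 7 granulocyte, lymphoid and erythroid markers only S100a8 was tested. It was lower in adipogenic medium, at −3.36 (limma adjusted p = 0.022), and at −4.84 without control adipogenic library 2 (limma adjusted p = 1.28e-07), while limma voom on all libraries did not call it. In osteogenic medium its difference was 0.12 (limma adjusted p = 0.966). The sum of the 7 was 3.79, 4.63 and 5.41 FPKM in control and 5.11, 4.11 and 6.22 in knockout libraries with osteogenic medium, and 65.9, 2.51 and 86.2 in control and 2.14, 1.39 and 1.97 in knockout libraries in adipogenic medium. Cd3e and S100a9 were at 0 in all libraries.

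**Figure D5:**
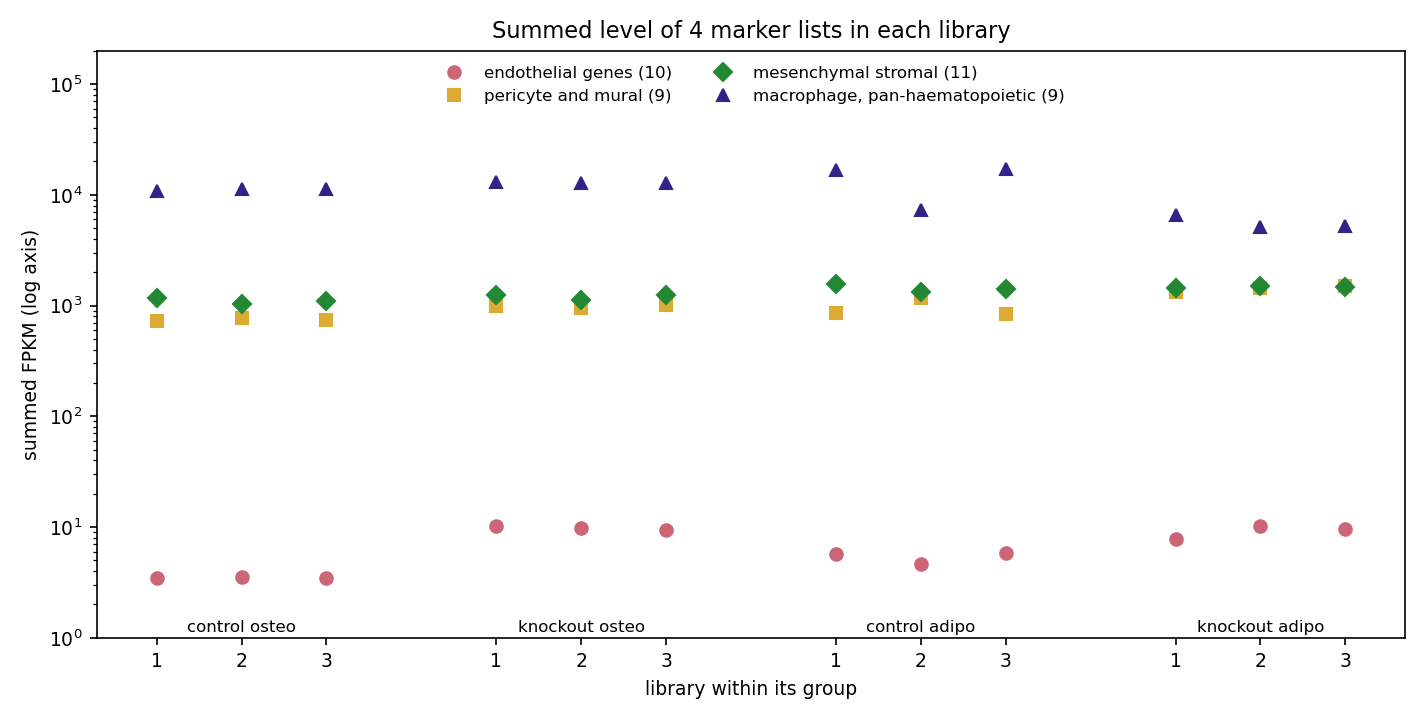
Summed FPKM per library (log axis) of the 10 endothelial genes, 9 pericyte, 11 mesenchymal and 9 macrophage markers in the 4 groups, with a point per library. The endothelial sum lay at 3.47 to 5.78 FPKM in control and 7.76 to 10.3 in knockout libraries, and the macrophage sum of control adipogenic libraries 1 and 3, at 16730 and 17158, was above those of all other libraries.

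The genes most like the 10 were sought over the 12 libraries by Pearson's r with the mean standardised log2(FPKM + 1) of the 9 members with a median of at least 3 fragments. Of 12867 genes compared, the 10 with the highest r were Mxra8 (0.965), Vcp-rs (0.962), Tnfrsf11b (0.961), BC002163 (0.956), Hdhd3 (0.947), Gm10036 (0.946), Crim1 (0.944), Orm2 (0.940), Tspan9 (0.940) and Adgrl4 (0.935). Over the 11 libraries without control adipogenic library 2 their r was 0.931 to 0.964. The libraries share their groups, so these values follow the order of group means and are a description. Of the 10, 1 (Adgrl4) is on the endothelial lists. Mxra8, a matrix and adhesion protein of stromal cells, was at 37.5 to 43.8 FPKM in control and 46.8 to 50.1 in knockout libraries. Tnfrsf11b, the gene of osteoprotegerin, was at 3.00 to 5.18 FPKM in control and 5.57 to 6.55 in knockout libraries. Vcp-rs, BC002163 and Gm10036 are processed pseudogenes, which can share reads with near-identical copies. This was not tested for them, and their values are uncertain. BC002163 was at 0.559 to 2.10 FPKM in control and 40.3 to 52.6 in knockout libraries.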

How the data were processed

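Total RNA of cultured bone marrow MSCs was sequenced in 12 samples, and the labels gave genotype and medium. The authors deposited FPKM per gene. The submitters' processing notes name Bowtie 0.12.2 and mm9, while the paper lists HISAT2 and Ballgown, and which of these made the table was not settled here. Identifiers were matched by gene ID to GENCODE M21 on GRCm38 (54495 of 54532 had a symbol), and coordinates are from that build. No column of the table was left unused (0).

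Fragments were recovered from exonic lengths and the steps of FPKM in Python 3.11.15. The recovered depth scale, divided by median ratios, varied by 0.00991% between libraries, so the deposited values had already been scaled by median ratios. Genes with at least 1 FPKM in at least 3 libraries (12871) were fitted on the log2(FPKM + 1) scale by limma 3.58.1 (R 4.3.3), which used 4 group means and let the variance follow the mean. P-values were adjusted after Benjamini and Hochberg, and an adjusted p under 0.05 passed. This scale understates fold changes of low genes. The fits were checked on simulated data. Ratios of fragments carry exact binomial intervals. Intervals and floors cover counting error only, since copies made by amplification are not independent molecules.

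The 10 genes and all lists were chosen with earlier results of these data known. The lists are endothelial transcription factors, vascular receptors, surface and cytoplasmic genes, arterial to lymphatic genes, ligands, junction partners, and macrophage, megakaryocyte, pericyte, mesenchymal and granulocyte markers. Genes named are the 10 genes, Chd7, in each list the genes that passed limma in a genotype contrast (the 5 with the largest change where more passed), all ligands, Ptprb, the most abundant and defining markers, and the 10 genes most like the members. Others were named after their values were seen, among them Thbd, Fli1, Nrp2, Mmrn2, Clec14a, Erg, Robo4, Myct1, Cyyr1, Lyve1 and Bcl6b. Alternatives were a pseudocount of 0.1, no filter, TPM, median ratio scaling, a variance without trend, fits of the compared libraries alone, a block for the replicate number, limma voom on recovered fragments of the same genes, and each library left out. Limma voom on genes with a mean of at least 10 fragments, also with the block and without control adipogenic library 2, was added after seeing the data, as were both filters met in each genotype, by limma also without that library. The labels do not say that the libraries are separate mice or cultures, so p-values measure only the spread between these samples.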

Additional observations from a re-analysis of the deposited data

Results flagged for a closer look

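For 12 of the 31 other endothelial genes that passed the filter in each genotype, the genotype effect differed between the media by the interaction term of limma. Of all genes under that filter, 11.2% passed as more positive and 10.2% as more negative. The interaction is the effect in adipogenic minus that in osteogenic medium on the log2(FPKM + 1) scale. It was negative for S1pr1 (−1.56, limma adjusted p = 2.31e-06), Thbd (−1.18, limma adjusted p = 0.000827), Arap3 (−1.1, limma adjusted p = 0.000918), Lmo2 (−0.89, limma adjusted p = 0.000563), Nrp2 (−0.75, limma adjusted p = 0.013), Plvap (−0.61, limma adjusted p = 0.0338) and Ephb4 (−0.35, limma adjusted p = 0.00903). It was positive for Foxc2 (0.57, limma adjusted p = 0.0101), Efnb2 (0.61, limma adjusted p = 0.00741), Klf4 (0.73, limma adjusted p = 0.0299), Stab1 (0.92, limma adjusted p = 0.016) and Notch4 (1.36, limma adjusted p = 7.23e-05). Limma voom on all libraries did not call that of Plvap (limma voom adjusted p = 0.0832). Genes that did not pass the filter in each genotype are left out here. In adipogenic medium the macrophage markers moved with the same groups, and their part in these differences was not tested.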

How the results depend on the processing

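Member values in the genotype comparison were recomputed 152 times for 19 values, of which 131 moved by less than the spread, 17 moved by more and 4 changed sign. Of the 17, 16 came from the pseudocount of 0.1, which by construction widens differences of low genes, and the other was Emcn in adipogenic medium under TPM. Esam in adipogenic medium changed sign under TPM (0.0556) and lay between −0.1561 and 0.0790 with single libraries left out; the cause was not tested. Left out of this tally are median ratio scaling, which the deposited values already had, and Cldn5 in adipogenic medium, at 0 in all 6 libraries, since neither could move.

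Other endothelial genes called in osteogenic medium numbered 10, against 6 under TPM, 24 with only the libraries compared and, with more genes tested by limma voom at a mean of 10 fragments, 16, or 30 without control adipogenic library 2. In adipogenic medium 20 were called, against 9 with only the libraries compared and 33 by that limma voom fit without control adipogenic library 2, and for the interaction 14, against 29. No share of all genes is given for the counts of 30, 33 and 29, so they are not read as particular to these genes. By limma, leaving out that library raised the share of all genes higher in osteogenic medium from 4.94% to 11.4%. Of the members, 1 was called for the medium in control libraries, against 2 with a pseudocount of 0.1, 2 by limma voom at a mean of 10 fragments and 5 by it without control adipogenic library 2. Of all genes, 10.5% passed as higher and 12.3% as lower by limma in this comparison, and 8.69% and 11.1% by that limma voom fit. Without control adipogenic library 2 the limma voom shares were 24.0% and 21.3%. The member count was 0 under TPM, with only the libraries compared and by limma voom on the same genes, while limma on all libraries had 3 at an unadjusted p under 0.05. In knockout libraries 1 was called, against 2 without a filter, without a trend, with only the libraries compared, without control adipogenic library 2 and by limma voom at a mean of 10 fragments, and 4 by that limma voom fit without this library. The second gene was Pecam1 without a trend, with only the libraries compared and without control adipogenic library 2. It reached 1 FPKM in knockout osteogenic but in no knockout adipogenic libraries, so nothing is read from these 3 counts. Apart from settings that add genes or drop samples, the cause was not tested. Where no share of all genes is given here or above, a count is not read as particular to these genes. With each library left out, the ranges were 8 to 18 for the genotype with osteogenic medium, 13 to 25 with adipogenic medium, 0 to 3 and 1 to 2 members for the medium in control and knockout libraries, and 11 to 23 for the interaction.

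With the filter met in each genotype, 7 were called in osteogenic medium, 19 in adipogenic medium and 12 for the interaction, of 31 tested, or 16, 24 and 21 without control adipogenic library 2, and 13, 22 and 13 of 45 by limma voom.

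With a replicate block in the fit, the counts were 9, 19, 0, 1 and 14 in the same order, and 14, 28, 3, 2 and 19 by limma voom at a mean of 10 fragments. The share of all genes called with the block is not given, so these counts are not read as particular to these genes. The labels do not say whether equal numbers pair the libraries. Deviations of equal numbers from their group means correlated at −0.0375, 0.0576 and −0.0296 between genotypes with osteogenic medium. With adipogenic medium they correlated at 0.466, 0.397 and −0.286. Between media they correlated at −0.0559, 0.0859 and 0.0418 in control and 0.0302, −0.0136 and −0.0196 in knockout libraries. Deviations within 3 libraries depend on each other, and control adipogenic library 2 stood apart, so these values cannot decide the pairing. Depth limits Cldn5, Tek, Tie1 and Esam most.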
